A study of Homo sapiens with 5 samples.

Results

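Most DEAD and DEAH box RNA helicases have gene symbols that begin with DDX or DHX. They were taken here by symbol, as every one made of DDX or DHX, a number and at most the letter A or B, together with DDX3X, and 50 of the 24497 gene rows matched, 34 with DDX and 16 with DHX symbols. The RNA came from HEK293, a line of human embryonic kidney cells immortalised with adenovirus DNA, grown in serum-containing medium with no treatment named. Lysates of 1000 cells were reverse-transcribed from an oligo-dT primer, the cDNA of 100 cells was amplified with 18 PCR cycles, and the fragments holding the 5′ ends of transcripts were sequenced on an Ion Proton instrument. The libraries were prepared in 2 batches, batch B with 3 libraries and batch A with 2, and the labels give no more than this letter and a different prefix of the sample names on how the batches differed. The protocol is the same text for both and names ERCC spike-in RNA, yet the batch B libraries held 13, 1 and 19 ERCC counts and the batch A libraries 1785 and 2127. The batches therefore differed in the measured spike-in as well as in their label, and its part in the results below was not tested. Batch B libraries 1, 2 and 3 held 373687, 575472 and 685181 gene counts, and batch A libraries 2 and 3 held 686883 and 803168. Libraries carry here the number that ends their column, and values are listed in that order within each batch. Levels are CPM, a gene's counts scaled to a fixed total of gene counts per library, so 3 counts, the limit set by a count of 0, stood for 8.03 CPM in batch B library 1 and for 3.74 CPM in batch A library 3.

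RNA helicases of this class bind RNA and ATP and use the energy of ATP to open short RNA duplexes or to strip proteins from RNA. DEAD box enzymes load directly onto a duplex and pry it apart locally, whereas most DEAH box enzymes translocate along a strand and pull on the RNA from a distance. Growing cells use them at nearly every step in the life of an RNA, above all in the nucleolus, where ribosomal RNA is folded and processed, and in the spliceosome, where each remodelling step has its own helicase. The family name spells the 4 amino acids of motif II, the segment that holds the magnesium ion and water needed for ATP hydrolysis.

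The 30 coding bases around motif II are shown for members that stand for each spelling of the motif and for some of the paralogs compared further on. They were read from the GENCODE 29 transcripts (GRCh38), and the 12 capital bases encode the motif itself.
DDX5: cttgtccttGATGAAGCAGATagaatgctt
DDX17: cttgtattgGACGAAGCTGACagaatgctt
DDX3X: ttggtgttaGATGAAGCTGATcggatgttg
DDX19A and DDX19B: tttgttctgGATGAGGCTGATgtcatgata
DDX21: gttgtcctgGATGAAGTGGACcagatgttg
DDX39A: tttgtgctgGACGAGTGTGACaagatgctg
DDX39B: tttattttgGATGAATGTGATaagatgctt
DDX52: cttgtagtaGACGAATCAGATaaactgttt
DHX15: ataattcttGATGAGGCTCATgagaggaca
DDX11: gtgatcatcGACGAGGCGCACaacctgatc
DHX9: gtaattgtaGATGAAATACATgaaagagat
DHX30: gtcatcgtgGATGAGGTGCATgagcgggac
DDX58: atgatatttGATGAATGCCACaacactagt
A motif was found in 48 of the 50 members. The search allowed only A, C, I, V or S as the third letter and D or H as the last. Other spellings would be missed, and every motif found had to end in D or H. DEAD was the commonest spelling with 25 members, followed by DEAH with 9 and DEVH with 5. DDX21 and its paralog DDX50 carried DEVD, DDX39A and DDX39B carried DECD, DHX9 and DHX36 carried DEIH, DDX58 and DHX58 carried DECH, and DDX52 alone carried DESD. The symbol followed the last letter in most cases, since 30 DDX members ended in D and all 15 DHX members with a motif ended in H, while DDX11, DDX58 and DDX60 had DDX symbols with a motif ending in H. The same amino acids were written in many ways in DNA: DEAD was encoded by 11 different 12-base sequences in 25 members, and the paralogs DDX5 and DDX17 used different ones. DDX19A and DDX19B were identical over all 30 bases. No motif was found in DHX32 or in DDX26B, a symbol that GENCODE 29 gives as INTS6L, a relative of an Integrator subunit rather than a helicase.

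Of the 50 members, 49 had at least 1 count and 46 had a count in every library. Levels ranged widely: 18 members averaged at least 100 CPM over the 5 libraries, 21 lay between 30 and 100 CPM, 7 lay between 10 and 30 CPM and 4 lay below 10 CPM. The median of the members was 57.7 CPM, against 45.9 CPM for the 9215 genes that passed the filter on low counts, which 45 members also passed. Together the members took 0.482%, 0.512% and 0.509% in batch B and 0.503% and 0.529% in batch A of all gene counts. That amounted to 0.501% ± 0.0165 in batch B and 0.516% ± 0.0185 in batch A (SD, n = 3 and 2), a difference smaller than the spread within either batch. The 12 members of highest CPM held 63.6% of the 15936 member counts and the 6 highest held 42.4%. Dividing each mean CPM by transcript length kept 10 of those 12 among the 12 highest. On that scale, CPM per kb of the GENCODE 29 transcript, DDX17 led with 181, followed by DDX5 with 161, DDX18 with 109 and DDX21 with 90.8. Per kb of coding sequence the order was DDX5 with 223, DDX18 with 206, DDX21 with 182 and DDX17 with 181, since the DDX17 transcript used is almost all coding (2187 of 2190 bases). The order of the highest members thus depended on the length used. Because only fragments with 5′ ends were sequenced, counts need not grow with length, and a value per kb is not read as a level here. Whether dividing by length suits such libraries was not tested.

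**Figure D1:**
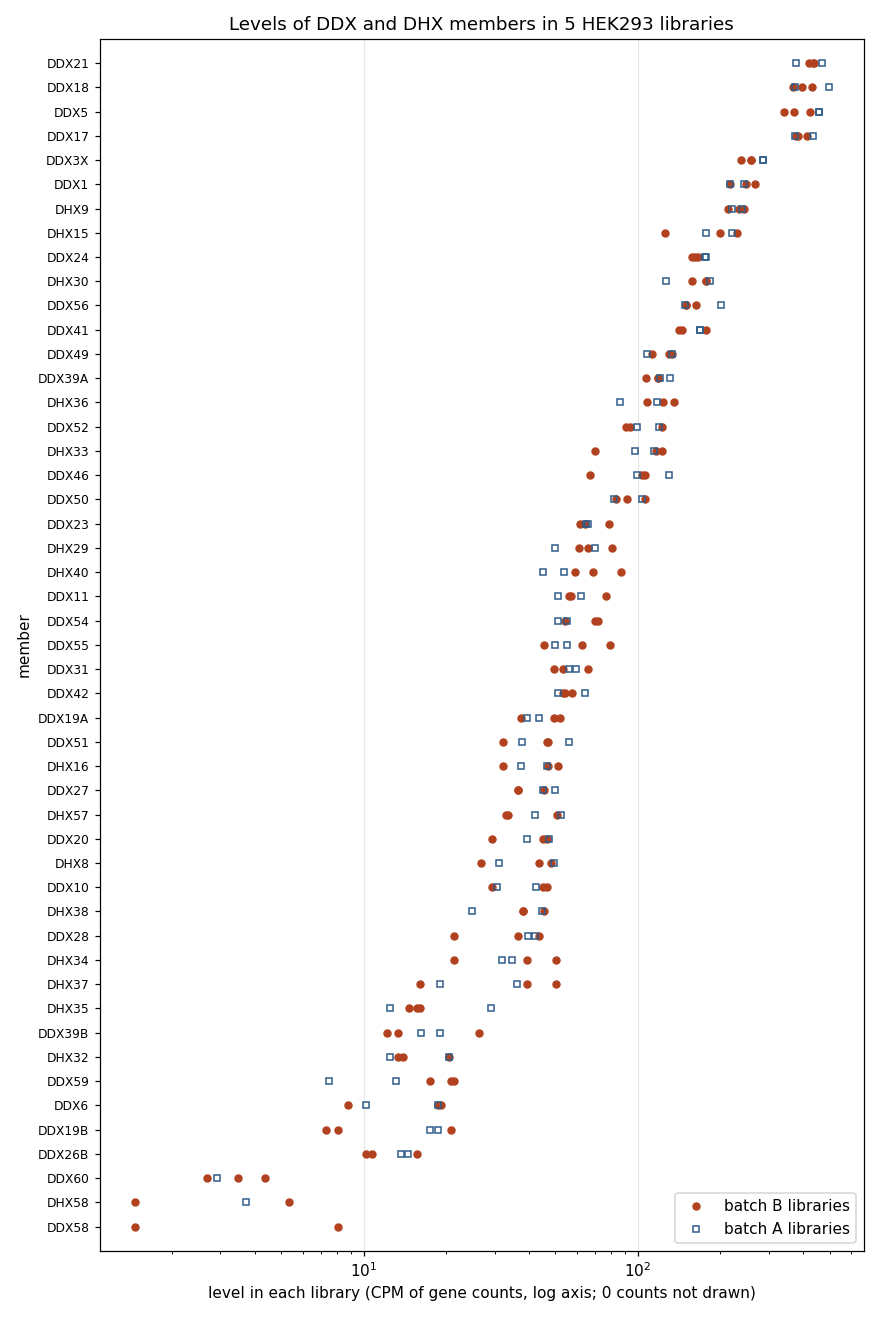
Level of each DDX and DHX member in CPM (horizontal log axis), with 1 filled circle for each batch B library and 1 open square for each batch A library and members ordered by their mean. DDX21, DDX18, DDX5 and DDX17 lie at 342 to 497 CPM in all 5 libraries, the 3 antiviral members lie at or below 8.03 CPM, and DDX47, with 0 counts, is not drawn.

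Helicases of ribosome assembly made up the largest role group, with 16 members and 38.2% of all member counts. DDX21, a nucleolar protein that couples the making of ribosomal RNA to its processing, had 420.1, 438 and 435 CPM in batch B and 377 and 468 CPM in batch A. DDX18, which works on the large ribosomal subunit in the nucleolus, had 396, 368 and 431 CPM in batch B and 374 and 497 CPM in batch A. The batch B values of DDX21 lay between its batch A values, and those of DDX18 overlapped them. DDX24 and DDX56 are further nucleolar helicases of the large subunit. DDX24 had 165.9, 158 and 162 CPM in batch B and 178 and 176 CPM in batch A, and DDX56 had 149.9, 163 and 150.3 CPM in batch B and 201 and 148 CPM in batch A. DDX24 had the smallest variation over the 5 libraries of the 39 tested members with a mean of at least 20 counts, with a coefficient of variation of 5.05%, below the 10.1% that counting error alone gives on average. DHX37, which releases the U3 RNA from the precursor of the small subunit, had the highest, 44.9%, at 16.1, 50.4 and 39.4 CPM in batch B and 18.9 and 36.1 CPM in batch A. Its 2 lowest values came from batch B library 1 and batch A library 2, so the variation did not follow the batches. DDX47, which takes part in early ribosomal RNA processing, had 0 counts in all 5 libraries. This would allow a level of up to 0.960 CPM over the libraries together, but only if its reads were counted to it. DDX47 shares 99.7% of its sequence with APOLD1, as described below, and how such reads were counted is not given, so that limit is uncertain. Fitted log2 fold changes (batch B over batch A) of the 15 tested members lay between −0.28 and 0.44, 8 above and 7 below 0. The highest of these was DHX37, which moved to 0.98 without batch A library 3 and to 0.11 without batch A library 2.

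The splicing group had 11 members and 30.1% of member counts. It includes DDX5 and DDX17, closely related nuclear proteins that act in splicing and as transcriptional coregulators. DDX5 had 423, 372 and 342 CPM in batch B and 456 and 458 CPM in batch A. DDX17 had 383, 414 and 378 CPM in batch B and 435 and 374 CPM in batch A. The DDX5 values of batch B all lay below both values of batch A, while those of DDX17 overlapped. DHX15, the helicase that takes apart the spliceosome after splicing, had 126, 199.8 and 229 CPM in batch B and 178 and 220.4 CPM in batch A, and its lowest value, in batch B library 1, rested on 47 counts. DDX41, a helicase of the catalytic spliceosome, had 177, 144 and 142 CPM in batch B and 169 and 168 CPM in batch A, with the highest and the 2 lowest values all in batch B. Other spliceosomal helicases each act at a single step. DDX46, which acts when the branch site is chosen, averaged 92.2 ± 21.9 CPM in batch B and 114 ± 21.6 CPM in batch A. DDX23, which acts when the first spliceosome is activated, averaged 67.9 ± 9.03 CPM in batch B and 65.1 ± 0.544 CPM in batch A, and the 5 others of this group averaged 17.6 to 56.0 CPM over the 5 libraries (SD, n = 3 and 2).

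Helicases of the cytoplasm and of translation include DDX3X, which helps ribosomes start on messenger RNAs with structured leaders. DDX3X had 259.6, 259 and 238 CPM in batch B and 285 and 285 CPM in batch A. The batch A values were nearly equal and lay above all 3 batch B values. DHX36, which unwinds G-quadruplexes, stacked guanine structures in RNA and DNA, had 123, 136 and 108 CPM in batch B and 85.9 and 117 CPM in batch A, and DHX29, which helps the small ribosomal subunit scan structured leaders, had 80.3, 60.8 and 65.7 CPM in batch B and 69.9 and 49.8 CPM in batch A. DDX6, the helicase of P-bodies that represses translation and activates decapping, had 7, 11 and 6 counts in batch B and 7 and 15 counts in batch A, or 15.5 ± 5.87 CPM in batch B and 14.4 ± 6.00 CPM in batch A (SD, n = 3 and 2).

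The 4 export helicases averaged between 14.5 CPM (DDX19B) and 119 CPM (DDX39A) over the 5 libraries. DDX39A and DDX39B are close paralogs that work with the export complex TREX, and DDX19A and DDX19B strip proteins from messenger RNA at the cytoplasmic side of the nuclear pore. DDX39A had 107, 118 and 118 CPM in batch B and 121 and 131 CPM in batch A, with both batch A values above the batch B values. DDX39B had 13.4, 12.2 and 26.3 CPM in batch B and 18.9 and 16.2 CPM in batch A. DDX19A had 37.5, 52.1 and 49.6 CPM in batch B and 39.3 and 43.6 CPM in batch A, and DDX19B had 8.03, 20.9 and 7.30 CPM in batch B and 17.5 and 18.7 CPM in batch A. The DDX19B values rested on 3 to 15 counts, so neighbouring values of its libraries cannot be told apart.

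Outside these groups, DDX1, a member of the tRNA ligase complex, had 248.9, 217 and 267 CPM in batch B and 217 and 244 CPM in batch A. DHX9, a nuclear helicase that resolves RNA and DNA structures during transcription, had 244, 235 and 213 CPM in batch B and 221 and 239 CPM in batch A. Its batch means were nearly equal, 230.4 ± 15.6 CPM in batch B and 230.2 ± 12.6 CPM in batch A (SD, n = 3 and 2). DHX30, which serves the mitochondrial ribosome, had 177, 158 and 177 CPM in batch B and 183 and 127 CPM in batch A, with the extremes both in batch A. DDX20, the Gemin3 subunit of the SMN complex, averaged 40.4 ± 9.56 CPM in batch B and 43.3 ± 5.66 CPM in batch A, and DDX11, a DNA helicase of sister chromatid cohesion, averaged 63.2 ± 11.5 CPM in batch B and 56.6 ± 7.99 CPM in batch A (SD, n = 3 and 2). DHX40, whose role is less settled, had 58.9, 86.9 and 68.6 CPM in batch B and 45.1 and 53.5 CPM in batch A, higher in each batch B library than in both batch A libraries.

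The cytoplasmic sensors of viral RNA were near the limit of detection. DDX58 (RIG-I) had 3, 0 and 1 counts in batch B and 0 and 0 counts in batch A. DHX58 (LGP2), a regulator of that pathway, had 2, 0 and 1 counts in batch B and 0 and 3 counts in batch A, and DDX60, an interferon-induced member, had 1, 2 and 3 counts in batch B and 2 and 0 counts in batch A. No library exceeded 3 counts of any of them, and none passed the filter on low counts. The other 2 untested members were DDX47 and DDX26B, which had 4, 9 and 7 counts in batch B and 10 and 11 counts in batch A. DDX4, DDX25, DDX43 and DDX53, known from germ cells, had no row under these symbols and are not analysed here.

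Between the batches, 0 of the 45 tested members passed an adjusted p of 0.05 in edgeR (quasi-likelihood test, Benjamini-Hochberg), while 4.2% of all 9215 tested genes did, 198 (2.15%) being higher in batch B and 189 (2.05%) lower. At an unadjusted p of 0.05, 2 members passed, DDX5 and DHX40, or 4.44% of the members, against 16.4% of all tested genes. DESeq2's Wald test called 0 of the 36 members to which it gave an adjusted p (1.97% of all genes), with 1 (DDX5) at an unadjusted p under 0.05. The limma-voom test called 0 of 45 members (3.85% of all genes), with 2 at that unadjusted p. Nothing in the labels says that the libraries came from separate cultures, so these p-values measure only the spread between libraries, which may be technical. The edgeR fit took that spread from all genes together (infinite prior degrees of freedom), so a member's own spread does not set its p-value or interval. DHX15 and DDX24 had standard errors of 0.13 and 0.14, with coefficients of variation over the 5 libraries of 21.7% and 5.05%. A lower CPM of a gene can come from fewer cells expressing it or from less of its RNA per cell, and bulk libraries cannot tell them apart. The median fitted log2 fold change of the members was 0.04, against 0.004 over all tested genes, and 25 members were fitted above 0 and 20 below. The median size of the change, regardless of sign, was 0.14 for the members and 0.23 for all tested genes. A size of at least 0.5 was reached by 3 members, DDX59, DHX40 and DDX19B (6.67%), against 17.6% of all tested genes. Members and all tested genes were not matched for counts, here or in the shares of intervals below. The tested members had a median of 60.6 CPM and all tested genes one of 45.9 CPM.

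**Figure D2:**
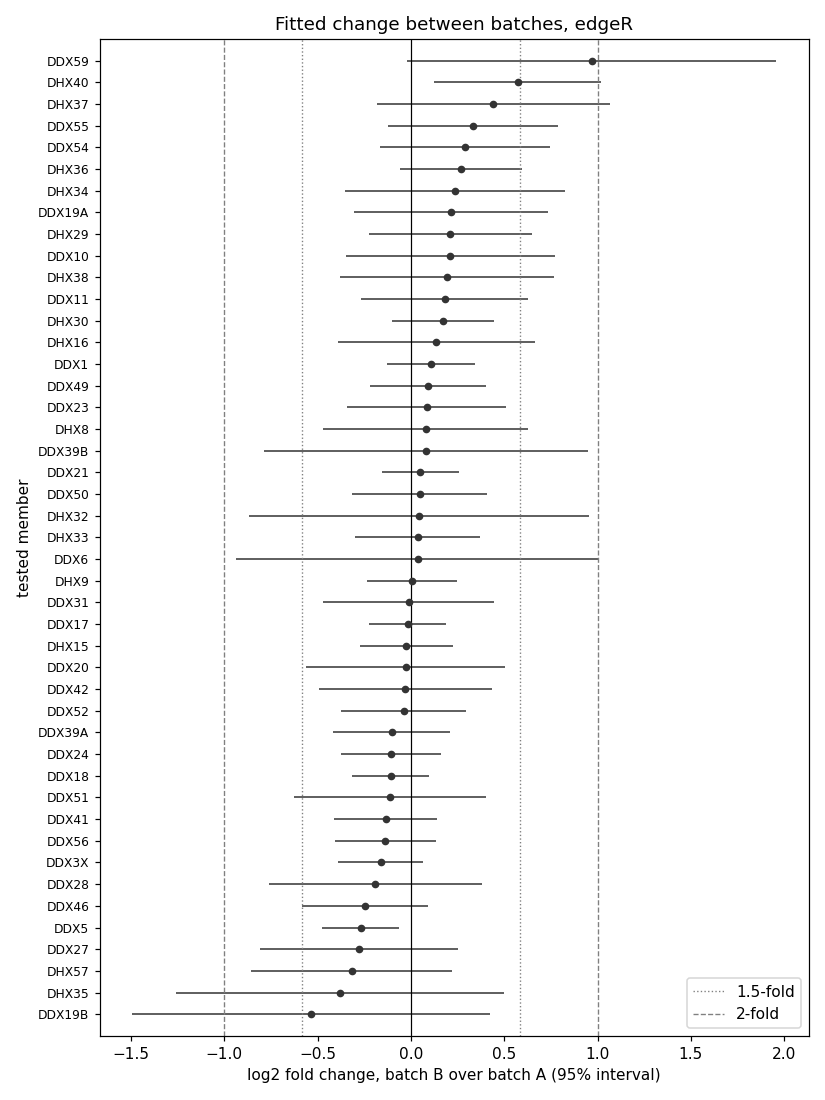
Fitted log2 fold change of the 45 tested members, batch B over batch A (horizontal axis), as points with 95% intervals from the edgeR standard error, with dotted lines at a fold of 1.5 and dashed lines at a fold of 2 in either direction. The intervals of 39 members lie inside the dashed lines and those of DDX5 and DHX40 do not reach 0.

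The precision of these values differed between members. The median standard error of the log2 fold change was 0.12 for the 12 highest members, 0.27 for the other tested members and 0.48 for the 6 tested members with a mean under 20 counts. The 95% interval lay within a fold of 1.5 in both directions for 22 members (48.9%), against 29.5% of all tested genes, and within a fold of 2 for 39 members (86.7%), against 69.5%. For the other 6 tested members, a difference of 2-fold between the batches stayed within the interval. Among the 39 tested members with a mean of at least 20 counts, the coefficient of variation over the 5 libraries had a median of 14.3%, close to the 16.05% that counting error alone gives. The ratio of the observed coefficient to that from counting had a median of 1.05 in these members and of 1.15 in the 5974 tested genes with such counts.

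DDX5 had the smallest adjusted p among the members. Its 158, 214 and 234 counts in batch B and 313 and 368 counts in batch A gave 379 ± 41.1 CPM in batch B and 457 ± 1.77 CPM in batch A (SD, n = 3 and 2). The log2 fold change was −0.27 with a standard error of 0.10 and a 95% interval of −0.47 to −0.06, and the edgeR adjusted p was 0.134. The adjusted p was 0.0461 without batch B library 1 (3.36% of all genes called) and 0.0493 when library totals replaced the TMM scaling (4.45% of all genes called), while without batch B library 3 the fold change was −0.17. With another scaling, filter or test, or with a library left out, the adjusted p lay between 0.0461 and 0.545. DHX40 had the largest fitted value in the other direction among members with a mean of at least 20 counts. Its 22, 50 and 47 counts in batch B and 31 and 43 counts in batch A gave 71.5 ± 14.2 CPM in batch B and 49.3 ± 5.94 CPM in batch A (SD, n = 3 and 2). The fitted log2 fold change was 0.57 with a standard error of 0.23 and a 95% interval of 0.12 to 1.02, and the edgeR adjusted p was 0.146, between 0.107 and 0.508 over the same settings. DHX40 shares 28.7% of its transcript sequence, counted as explained below, with other genes, mainly a pseudogene copy, and 0% of its first 300 bases.

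In 6 tested members (13.3%) the batches did not overlap in CPM, against 31.3% of all tested genes. DHX40 and DDX59 lay higher in CPM in all 3 batch B libraries, and DDX3X, DDX5, DDX24 and DDX39A lay lower. DDX59, a member without a settled molecular role, had 8, 12 and 12 counts in batch B and 9 and 6 counts in batch A. Its log2 fold change was the largest of the members, 0.97, but the 95% interval was −0.02 to 1.96 and the edgeR adjusted p was 0.318. It was 1.42 without batch A library 2 and 0.58 without batch A library 3. The fitted changes of DDX3X, DDX24 and DDX39A were small, −0.16, −0.10 and −0.10 on the log2 scale, with edgeR adjusted p-values of 0.531, 0.779 and 0.823. The lowest fitted value was that of DDX19B, −0.53 with a 95% interval of −1.49 to 0.43, and there the batches overlapped. This value was −1.22 when library 2 of batch B was left out and −0.16 when library 3 was.

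Counts were also summed by role, and the sums were not tested. Of all single tested genes, 31.3% did not overlap in CPM between the batches. A group without overlap is therefore not read as a difference. The ribosome assembly group took 0.179%, 0.193% and 0.201% in batch B and 0.184% and 0.208% in batch A of gene counts, or 0.191% ± 0.0113 in batch B and 0.196% ± 0.0171 in batch A (SD, n = 3 and 2), and its batches overlapped. The splicing group took 0.141%, 0.152% and 0.146% in batch B and 0.162% and 0.159% in batch A. Here all 3 batch B values lay below both batch A values, with means of 0.146% ± 0.00512 in batch B and 0.160% ± 0.00175 in batch A (SD, n = 3 and 2). Of its 11 members 7 were fitted lower and 4 higher in batch B, and 0 passed the test, where 4.2% of all tested genes did. Without DDX5, a choice made after its values were seen, the other 10 members took 0.0990%, 0.114% and 0.112% in batch B and 0.116% and 0.113% in batch A, and the batches overlapped. The translation group took 0.0503%, 0.0525% and 0.0460% in batch B and 0.0483% and 0.0505% in batch A. The group of less settled role went the other way without overlap, with 0.0155%, 0.0170% and 0.0150% in batch B and 0.0135% and 0.0139% in batch A and means of 0.0159% ± 0.00104 in batch B and 0.0137% ± 0.000287 in batch A (SD, n = 3 and 2). It holds DHX40 and DDX59, and also DHX57, fitted at −0.32 on the log2 scale, DHX32, fitted at 0.04, and the untested DDX26B. The 4 export members held 3.89% of all member counts, the 2 of small RNA and tRNA assembly 5.52%, the 2 of transcription and genome 5.68%, the 2 mitochondrial members 3.92%, the 5 of less settled role 2.91% and the 3 antiviral sensors 0.113%.

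**Figure D3:**
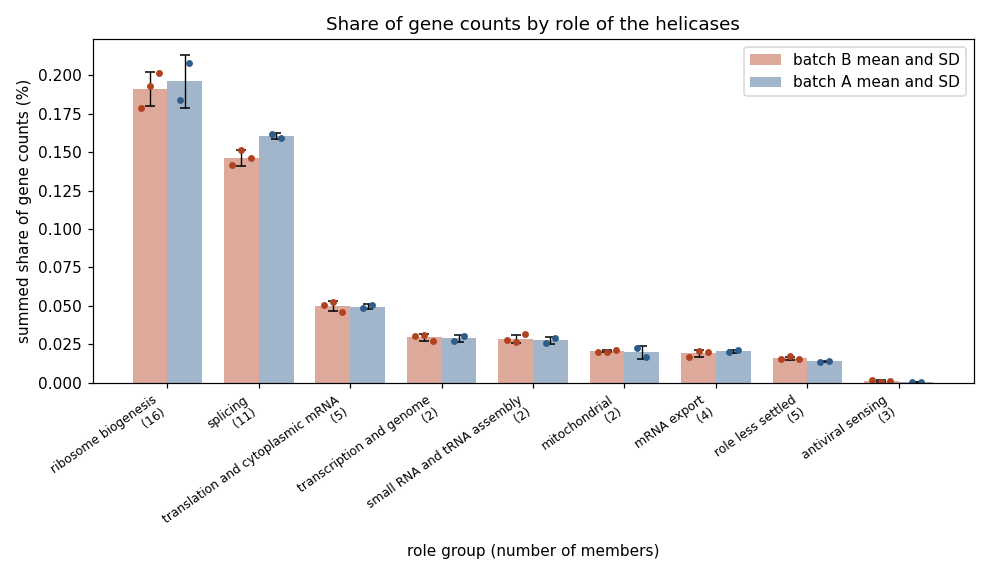
Summed share of gene counts in percent (vertical axis) by role group, batch B bars left of batch A bars, with the mean as the bar, the SD as the error line and 1 point for each library (n = 3 and 2). In the splicing group the batch B points, 0.141% to 0.152%, lie below the batch A points, 0.159% and 0.162%, while in the ribosome biogenesis group the batches overlap.

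Counts were split unevenly in most of the pairs compared. The splits that involve DDX39B, DDX19A or DDX19B are uncertain, since these members share sequence with other genes, as described below. To a lesser degree this also holds for DDX50, which shares 26.0% of its sequence and 13.3% of its first 300 bases with other genes. DDX17 held 49% (95% exact interval 47.1% to 51.0%, 1239 of 2526 counts) of the counts of DDX17 and DDX5 together. By library its share was 47.5%, 52.7% and 52.5% in batch B and 48.9% and 44.9% in batch A. Divided by length, DDX17 and DDX5 stood at 181 and 161 CPM per kb of transcript but 181 and 223 per kb of coding sequence. DDX50 held 18.0% (95% exact interval 16.1% to 19.9%, 294 of 1636 counts) of its pair with DDX21, the nucleolar paralog next to it in the genome, and 17.8%, 16% and 19.7% in batch B and 17.8% and 18.1% in batch A, with 36.7 CPM per kb against 90.8 for DDX21. DDX39B held 12.9% (95% exact interval 9.92% to 16.5%, 56 of 433 counts) of its pair with DDX39A. The share was 11.1%, 9.33% and 18.2% in batch B and 13.5% and 11% in batch A, below that of DDX39A in each library. The values per kb were 8.15 and 80.9 CPM. DDX19B held 25.1% (95% exact interval 19.1% to 32.0%, 47 of 187 counts) of its pair with DDX19A, and 17.6%, 28.6% and 12.8% in batch B and 30.8% and 30.0% in batch A, with 4.27 CPM per kb against 14.8 for DDX19A. DHX57 held 40% (95% exact interval 34.7% to 45.5%, 132 of 330 counts) beside DHX29, another DEVH member, with 8.72 and 14.5 CPM per kb. By library DHX57 held 38.8%, 35.2% and 33.8% in batch B and 37.7% and 51.2% in batch A. DDX6 held 5.23% (95% exact interval 3.85% to 6.91%, 46 of 880 counts) beside DDX3X, a comparison of cytoplasmic helicases rather than close paralogs, with 2.45 and 38.4 CPM per kb. These intervals cover counting error only. The values per kb take counts to grow with transcript length, which libraries of 5′ ends need not follow.

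**Figure D4:**
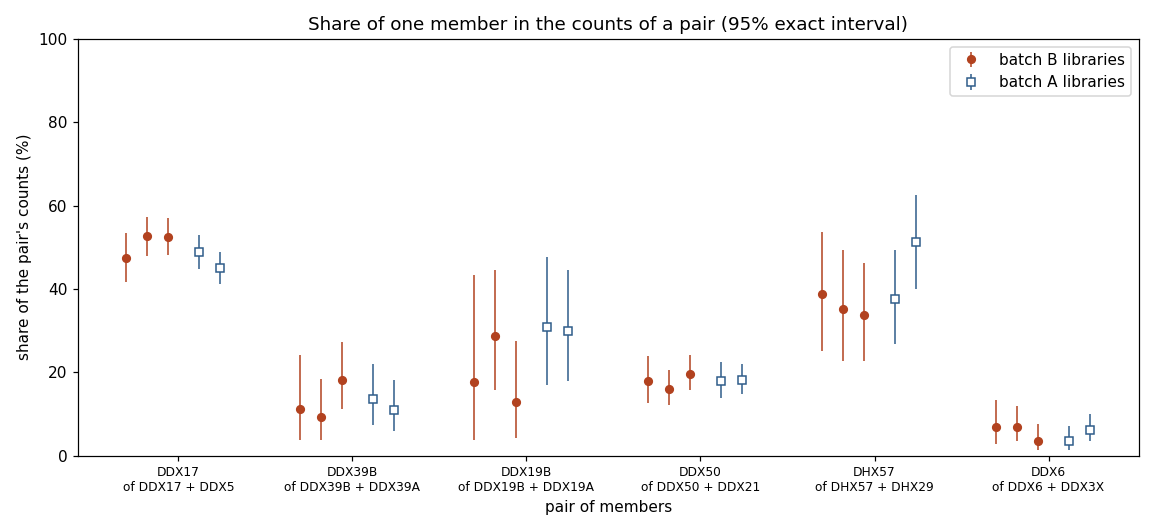
Share of the first-named gene in the summed counts of a pair in percent (vertical axis), for each library of batch B (filled circles, left) and batch A (open squares, right), with 95% exact binomial intervals. DDX17 lies at 44.9% to 52.7% and DDX39B at 9.33% to 18.2%, and the intervals of DDX19B are wide.

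Some members share sequence with another gene, and their levels were low in some and higher in others. Each transcript was cut into all its 30-base words, and the share of words also found in transcripts of another gene of GENCODE 29 was counted. DDX47 shared 99.7% of its words and all of those in its first 300 bases, DDX39B shared 96.2% and 81.2%, DDX19B 44.0% and 48.0%, and DDX11 52.4% and 43.5%. DDX19A shared 64.3% of its words overall but 0% in the first 300 bases, the stretch nearest to what 5′-end libraries read. At the other end, 24 members shared no word at all and 42 shared none in their first 300 bases. The 24 include the low members DHX35, DHX32, DDX59, DDX26B, DDX58 and DHX58, while DDX19A and DDX11 averaged 44.4 and 60.6 CPM. The partner of DDX47 is APOLD1, annotated on the same strand with an exon that overlaps the first exon of DDX47. That of DDX39B is a readthrough transcript with ATP6V1G2, and DDX19A and DDX19B share most with AC012184.2. Unlike APOLD1, the readthrough transcript and AC012184.2 had no row under these symbols among the gene counts. APOLD1, a gene known from endothelial cells, had 33, 39 and 55 counts in batch B and 17 and 53 counts in batch A, or 78.8 ± 10.3 CPM in batch B and 45.4 ± 29.2 CPM in batch A (SD, n = 3 and 2), beside the 0 counts of DDX47. It rose in batch B by 0.76 on the log2 scale with a standard error of 0.23 and an edgeR adjusted p of 0.0296. The log2 fold change was 0.28 without batch A library 2 (edgeR adjusted p = 0.743) and 1.65 without batch A library 3. The call was lost with library 1 or 3 of batch B left out (0.0915 and 0.0888), with the libraries thinned to equal depth (0.230), with no filter (0.0934) and in DESeq2's Wald test (0.569), each value in parentheses being an adjusted p. How reads fitting several genes were counted is not given in the sources used here, and whether such reads were assigned to the partner was not tested. The levels of DDX47, DDX39B, DDX19A, DDX19B and DDX11 are therefore uncertain. DDX12P, a pseudogene copy of DDX11, had 56 counts over the libraries, against 189 for DDX11. Exons of 21 members overlap those of another gene, on the same strand in 6, and strand use in counting is not given either.

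**Figure D5:**
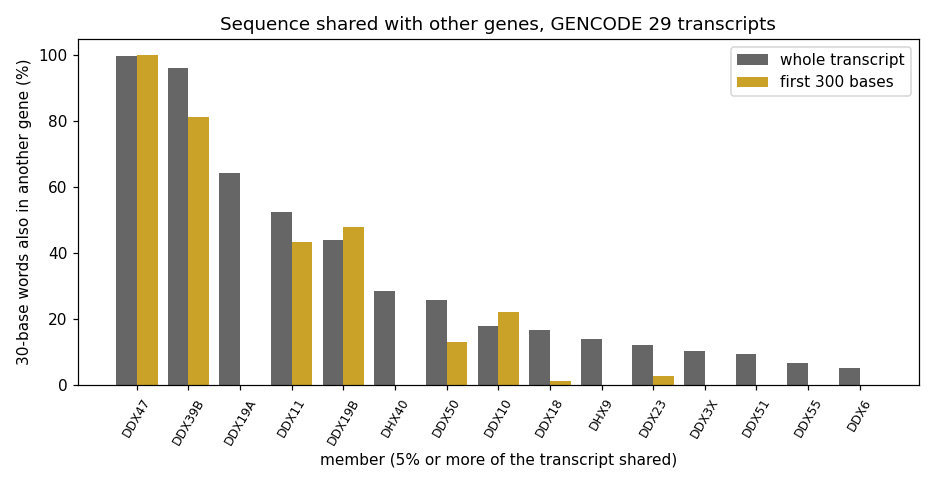
Percentage of a member's 30-base words that also occur in another gene (vertical axis), for the whole transcript (dark bars) and for its first 300 bases (light bars), in the 15 members with at least 5% shared. DDX47 and DDX39B stand at 99.7% and 96.2% for the whole transcript, and DDX19A drops to 0% in its first 300 bases.

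Because these libraries start at the 5′ end, the promoters are the nearest genomic sequence to what was read, and 45 members had windows in RefSeq's annotation of GRCh38.p14, from 250 bases before to 50 after an annotated start. The motif CCGGAAG, bound by ETS factors and searched on both strands, occurred in a window of 23 of the 45 members (51.1%), against 24.9% of the 6907 tested genes with windows. Counted by window the shares were 39.0% of the members' 59 windows, 18.6% of the tested genes' windows and 10.3% of all windows. CACGTG, the E-box bound by MYC and related factors, occurred in windows of 9 members (20.0%), against 13.6% of the tested genes. CCAAT occurred in 46.7% of members and 44.5% of tested genes, and GCGCATGC, part of the NRF1 motif, in 11.1% and 7.24%. None of these motifs contains another, and a match is a description of letters, not of binding. The 250 bases before a start are shown for DDX5 and DDX21, the members of highest CPM in the splicing and ribosome groups, with the E-box and the ETS motif (in DDX5 on the other strand, as CTTCCGG) in capitals. In DDX5 the capitals begin 122 and 30 bases before the start, and in DDX21 31 bases before it. DDX5 had 3 windows and DDX21 had 2, and those with the E-box are shown. The ETS motif of DDX21 begins 60 bases before the start in its other window, and the other DDX5 windows hold neither motif.
DDX5, chr17:64506639-64506888, minus strand: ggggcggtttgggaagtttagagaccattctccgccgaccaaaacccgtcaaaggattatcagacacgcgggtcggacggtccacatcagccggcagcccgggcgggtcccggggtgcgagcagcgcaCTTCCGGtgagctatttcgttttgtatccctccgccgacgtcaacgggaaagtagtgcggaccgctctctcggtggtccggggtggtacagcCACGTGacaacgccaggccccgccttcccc
DDX21, chr10:68956397-68956646, plus strand: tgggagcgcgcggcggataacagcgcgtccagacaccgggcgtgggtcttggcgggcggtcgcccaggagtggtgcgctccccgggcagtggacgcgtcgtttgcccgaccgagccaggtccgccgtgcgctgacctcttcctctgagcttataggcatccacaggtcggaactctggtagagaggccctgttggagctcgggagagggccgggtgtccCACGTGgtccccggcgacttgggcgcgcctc

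Related RNA helicases outside the symbol rule were examined in the same fit. EIF4A1, a DEAD box protein whose symbol does not match the rule and which unwinds messenger RNA leaders at the start of translation, had 353, 398 and 356 CPM in batch B and 264 and 230.3 CPM in batch A. It rose in batch B by 0.61 on the log2 scale with a standard error of 0.11 and an edgeR adjusted p of 1.8e-05, which became 0.0566 without batch A library 3. Its paralog EIF4A2 averaged 298 ± 7.49 CPM in batch B and 288 ± 10.0 CPM in batch A, with an edgeR adjusted p of 0.839 (SD, n = 3 and 2). EIF4A1 was the 1 called gene among 10 tested helicases of the same superfamily outside the rule, against 4.2% of all tested genes. Whether EIF4A1 changed differently from the members was not tested.

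Partners of the members were examined as lists, and 0 genes passed the edgeR test in any of them: 0 of 11 tested export cofactors, 0 of 8 partners of DDX6, 0 of 11 G-patch proteins that activate DEAH helicases, 0 of 7 SMN complex genes and 0 of 4 tRNA ligase genes, where 4.2% of all tested genes passed. THOC2, the TREX subunit of highest level, averaged 291 ± 35.9 CPM in batch B and 224 ± 38.9 CPM in batch A. Its edgeR adjusted p was 0.0522. ALYREF, an export adaptor that binds DDX39B, averaged 155 ± 12.3 CPM in batch B and 129 ± 16.1 CPM in batch A. CNOT1, the scaffold that binds DDX6, averaged 234 ± 11.1 CPM in batch B and 221 ± 6.37 CPM in batch A, and RBM17, a splicing factor with a G-patch, averaged 108 ± 7.70 CPM in batch B and 118 ± 4.45 CPM in batch A. In the SMN complex 6 of 7 tested genes were fitted lower in batch B, with a median log2 fold change of −0.30, and STRAP was the highest at 230.4 ± 13.2 CPM in batch B and 289.7 ± 8.25 CPM in batch A. The tRNA ligase subunit C14orf166, a partner of DDX1, averaged 285 ± 19.0 CPM in batch B and 307 ± 13.6 CPM in batch A (SD, n = 3 and 2 throughout).

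Most of the markers listed for the labelled line were found above the filter on low counts. VIM, which HEK293 cells express strongly, averaged 517 ± 27.7 CPM in batch B and 428 ± 16 CPM in batch A (SD, n = 3 and 2), 7 of 8 HEK293 markers passed the filter on low counts and 0 of them passed the test (4.2% of all tested genes did), and PAX2 had 1 to 4 counts. Of the markers of other cells, CD3E and ALB had 0 counts in all libraries, EPCAM had at most 2 and COL1A1 had 3 to 13. The number of members with a count was 49, 47 and 49 in batch B and 47 in each batch A library, also after thinning to the shallowest library.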

How the data were processed

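The deposited count table holds 1 column for each of 5 libraries (batch B, 3; batch A, 2) with whole-number counts per gene, which the authors left unnormalized. The submitters' processing notes name STAR 2.4.0a, cutadapt 1.2.1 and the hg19 (GRCh37) build. Not given in the sources used here are the counting program, strand use, treatment of reads fitting several genes, and whether the molecular identifiers of the template-switching oligonucleotide were collapsed. PCR copies may therefore be counted, and intervals cover counting error only. Columns were tied to batches through the prefix shared with the sample titles, and their numbers only name libraries. ERCC spike-in rows (1 to 19 counts in batch B libraries, 1785 and 2127 in batch A) were left out, and depth was 373687 to 803168 gene counts.

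CPM is a gene's count scaled to a fixed total of gene counts. Batch B was tested against batch A on all genes in edgeR 4.0.16 (R 4.3.3) with filterByExpr, TMM scaling, the quasi-likelihood F test and Benjamini-Hochberg adjustment at 0.05; the 95% interval is the log2 fold change plus and minus the normal quantile times its standard error. The code was tested on simulated counts. Alternatives were DESeq2 1.42.0, limma 3.58.1 (voom), other scalings and filters, thinning and leaving out each library. Shares of counts have exact Clopper-Pearson intervals.

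The members and lists were chosen with earlier results of these data known. Full values are given for the 12 members of highest mean CPM, paralog pairs, non-overlapping members with an absolute log2 fold change of at least 0.5 and, from other lists, called genes and those of highest CPM; others named were chosen after their values were seen. A further gene of the other lists is not reported here. Sequences came from GENCODE 29 transcripts and RefSeq promoter windows (GRCh38, GRCh38.p14), another build than the counts, so no member coordinates are given besides those windows. Motif II was searched in the translated coding sequence by preset spelling and position. The spelling was DE, then A, C, I, V or S, then D or H, 40 to 450 codons after motif I. Motif I was taken as G, then K or S, then T or S.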

Additional observations from a re-analysis of the deposited data

How the results depend on the processing

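A fit with the number that ends each column as a replicate block, added after seeing the data, called 394 genes (4.28%) and 1 member, DDX5 (log2 fold change −0.35, edgeR adjusted p = 0.00557), and gave DHX15 0.11 and DHX9 −0.042. The labels number the replicates of batch A otherwise and name no shared culture or day, so this pairing has no support in the design. The number of members called was 0 under 6 alternatives of scaling, test, filter and thinning and 1 with library totals (DDX5, log2 fold change −0.29, edgeR adjusted p = 0.0493), and 0 to 1 with a library left out (DDX5, −0.35 without batch B library 1, but −0.17, adjusted p = 0.545, without batch B library 3). Calls over all genes numbered 387, against 104 with DESeq2's Wald test, 199 after thinning and 138 to 333 with a library left out; a lone batch A library was then taken to vary as batch B does. Directions were compared for 18 chosen members: the 12 of highest CPM, those without overlap, DHX36, DHX37 and DDX19B. DDX59 and DDX19B had no fit after thinning or with a mean of at least 20 counts. Of the 18, 7 reversed direction under at least 1 alternative, each with a main log2 fold change of at most 0.17 in size. The other members were not compared, so this is not a share of all members. With a library left out, log2 fold changes lay between −0.15 and 0.12 for DDX17, −0.26 and 0.10 for DDX18, −0.066 and 0.20 for DDX21, −0.37 and 0.11 for DDX56, −0.10 and 0.47 for DHX30, −0.19 and 0.13 for DHX15 and −0.037 and 0.095 for DHX9. DHX15 was also 0.092 after thinning, and DHX9 −0.015 with library totals and −0.014 without a filter; the cause was not tested. Without DDX5, added after seeing the data, the splicing group's share differed by −0.00623 percentage points, batch B minus batch A, in place of −0.0141. Depth limits the 6 tested members with a mean under 20 counts, whose standard error had a median of 0.48.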
